A study of Mus musculus with 11 samples.

Results

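The proteasome is the large protease that degrades ubiquitin-tagged proteins, and its subunit genes were examined in RNA-seq of mouse heart. Rows of the count table were mapped by Ensembl identifier to the GENCODE M21 annotation, and protein-coding genes with symbols Psma, Psmb, Psmc, Psmd or Psme followed by a number were taken, without the immunoproteasome genes Psmb8, Psmb9 and Psmb10. Of 22608 genes in the table, 45 matched the symbols, 3 were the immunoproteasome genes and 2 had a mean CPM (counts scaled to library size) under 1, which left 40. These 40 were 14 subunits of the 20S core, 17 subunits of the 19S regulatory particle, 3 chaperones of regulatory particle assembly (Psmd5, Psmd9 and Psmd10), 5 activators (Psme1, Psme2, Psme2b, Psme3 and Psme4) and Psmc3ip, a meiotic recombination factor that is no proteasome subunit.

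The study asked how the Williams-Beuren syndrome deletion and the drug JZL184 change the heart transcriptome. Complete deletion (CD) mice carry the deletion of the Williams-Beuren region on 1 chromosome and were kept on the C57BL/6J background, and their wild-type (WT) littermates were the controls. All mice were males of 8 to 16 weeks. JZL184 inhibits monoacylglycerol lipase, an enzyme that degrades an endocannabinoid, and was injected intraperitoneally each day at 8 mg/kg for 10 days, while the other mice had the vehicle (VEH) without the drug, which the treatment labels give as untreated. There were 2 mice in WT VEH and 3 each in CD VEH, CD JZL184 and WT JZL184. The paper gives heart as the source of the sequenced RNA and describes removal of the atria for its qPCR samples. The deletion spans many genes and is in every cell, so no value belongs to 1 deleted gene or to 1 cell type. Mice are named by group and by the letter in the count table, which matches no numbered label.

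The 20S core is a barrel of stacked rings, in which outer alpha subunits (Psma1 to Psma7) gate the entry and inner beta subunits (Psmb1 to Psmb7) hold the peptidase sites, carried by Psmb5, Psmb6 and Psmb7. The 19S regulatory particle caps the barrel, where ATPases (Psmc1 to Psmc6) unfold the substrate and the Psmd subunits of the base and lid bind ubiquitin chains and remove them. Other caps can take the place of 19S, among them the PA28 rings made from Psme1 and Psme2 or from Psme3, and PA200, which is encoded by Psme4. In heart muscle the proteasome removes contractile proteins tagged by ligases such as atrogin-1, the product of Fbxo32. When proteasome activity is low, the transcription factor Nfe2l1 is processed by the protease Ddi2 and raises transcription of subunit genes through antioxidant response elements.

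The promoters of 5 members on which the results turn are shown, since these elements would lie there: Psma3 and Psmb3, the core genes with the largest changes, Psmb5 and Psmb6, which carry peptidase sites, and Psme4, the member with the largest change of all. These rankings use changes without an offset for transcript length. Each sequence runs 5′ to 3′ from 150 bases before the RefSeq start to 20 bases after it on build GRCm38.p6, and capitals mark a match to TGACNNNGC, the core of the antioxidant response element, or to CCAAT, on either strand. The other spelling of the element, TGAGNNNGC, is not marked. They lie at chr12:70974473-70974642 (plus strand), chr11:97703284-97703453 (plus strand), chr14:54617976-54618145 (minus strand), chr11:70525207-70525376 (plus strand) and chr11:30771625-30771794 (plus strand).
Psma3: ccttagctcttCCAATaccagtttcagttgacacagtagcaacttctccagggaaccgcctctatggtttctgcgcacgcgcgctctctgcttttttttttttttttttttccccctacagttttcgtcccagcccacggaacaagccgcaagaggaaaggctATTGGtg
Psmb3: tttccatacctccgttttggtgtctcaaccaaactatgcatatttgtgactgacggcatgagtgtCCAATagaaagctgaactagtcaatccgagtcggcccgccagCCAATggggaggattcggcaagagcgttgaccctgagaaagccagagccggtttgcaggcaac
Psmb5: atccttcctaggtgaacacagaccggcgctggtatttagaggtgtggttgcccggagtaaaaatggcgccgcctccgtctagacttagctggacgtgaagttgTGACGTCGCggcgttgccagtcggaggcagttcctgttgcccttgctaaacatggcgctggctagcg
Psmb6: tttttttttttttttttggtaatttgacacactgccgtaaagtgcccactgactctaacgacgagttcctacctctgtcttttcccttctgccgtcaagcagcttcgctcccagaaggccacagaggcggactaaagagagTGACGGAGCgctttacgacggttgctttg
Psme4: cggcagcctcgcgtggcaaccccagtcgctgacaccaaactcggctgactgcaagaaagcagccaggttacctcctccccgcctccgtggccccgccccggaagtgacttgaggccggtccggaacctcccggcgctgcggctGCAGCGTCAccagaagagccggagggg

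RefSeq promoter windows (250 bases before to 50 after the start) were found for 34 of the 40 genes, in 37 windows. TGACNNNGC or its reverse complement stood in 6 of them (16.2%), against 12.4% of all 32851 windows of the same length. The 6 genes were the peptidase subunits Psmb5 and Psmb6, the activator gene Psme4, the ATPase gene Psmc6, the lid gene Psmd12 and the chaperone gene Psmd9. CCAAT or its reverse complement stood in 13 windows (35.1%), against 37.4% of all windows, and no member window held both CCAAT and TGACNNNGC. With TGAGNNNGC, the other common spelling of the element, 13 windows (35.1%) held a match, against 17.6% of all windows. It stood beside CCAAT in windows of Psma6, Psma7, Psmb3 and Psmc3ip. In the Psmb3 stretch shown above it lies 10 bases before the start and is not in capitals. A match is a stretch of letters and not a bound site.

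Each library held 69660329 to 92251550 counts. Gtf2i and Baz1b, which lie in the deleted region, had 51.2 to 57.2 and 25.7 to 26.2 normalised CPM in CD VEH against 123 to 129 and 68.2 to 73.1 in WT VEH. In CD JZL184 they had 65.9 to 68.2 and 29.7 to 34.2, against 95.2 to 104.9 and 50.9 to 58.96 in WT JZL184, so both genes separated the genotypes without overlap, with a smaller difference under the drug. The 6 cardiomyocyte markers summed to 23242 to 32755 CPM over the 11 mice, while skeletal muscle, adipocyte and T or B cell markers summed to 0.124 to 1.74 CPM, and CD VEH mouse A stood apart in 4 haemoglobin genes (18656 CPM, against 1407 to 5470 in the other mice). In bulk tissue, fewer cells of a type and less RNA per cell cannot be told apart. The labels do not say that each sample was 1 mouse's own preparation, so p-values measure the spread between these samples.

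The summed level of the 40 genes differed little between groups. Group means of the summed normalised CPM were 2718 ± 23.1 (SD, n = 2) in WT VEH, while CD VEH mice had 2752 ± 42.6 (SD, n = 3). In the treated groups they were 2671 ± 192 (SD, n = 3) in WT JZL184 and 2690.4 ± 22.4 (SD, n = 3) in CD JZL184. Core genes had mean levels over the mice of 44.4 to 119 normalised CPM and regulatory genes of 32.4 to 158. Per kb of the median coding transcript, the core genes had 29.5 to 100.6 CPM per kb in WT VEH (median 69.98). Among the peptidase subunits in WT VEH, Psmb7 stood at 100.6 ± 1.66 CPM per kb (SD, n = 2), Psmb6 at 95.7 ± 0.134 and Psmb5 at 79.7 ± 1.48. Psmb7 was also above Psmb6 in WT JZL184 (102 ± 12.5 and 101 ± 7.31, n = 3). Their order was the opposite in CD VEH (107 ± 3.54 and 109 ± 4.51, n = 3) and CD JZL184 (98.8 ± 2.87 and 99.8 ± 2.86, n = 3). In these 3 groups the SDs overlapped. The order depended on the length used, since per kb of the exon union Psmb5 stood at 67.4, Psmb6 at 40.8 and Psmb7 at 34.1 in WT VEH. Of the 40 genes, 38 passed the limit of 1 on average log2 CPM that the test used. Psmc3ip (1.21 to 1.74 normalised CPM) and Psme2b (1.11 to 2.04) lay just inside the rule's limit of 1 CPM and were not tested, while Psma8, a testis core subunit (0.218 to 0.687), and Psmb11, the thymus peptidase (0.201 to 0.423), lay just outside it.

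The 20S core genes and the 19S genes moved apart between groups, by small amounts that shrank with an offset for transcript length. The core median log2 fold-change minus the regulatory median was 0.14 in CD VEH versus WT VEH, -0.18 in CD JZL184 versus CD VEH and 0.13 in WT JZL184 versus WT VEH, and 0.081, -0.090 and 0.059 with the offset for the longest coding transcript. The mean log2 CPM over 14 core genes minus that over 17 regulatory genes was -0.0018 and -0.013 in WT VEH mice C and D and 0.13, 0.15 and 0.097 in WT JZL184 mice A, B and D. It was 0.16, 0.082 and 0.17 in CD VEH mice A, C and E and -0.053, -0.042 and -0.080 in CD JZL184 mice A, C and E. The 6 mice of CD VEH and WT JZL184 were all above the 5 mice of WT VEH and CD JZL184. The values are not scaled to transcript length, so their sign does not say which particle had more RNA. Core genes took 43.7% ± 0.151 (SD, n = 2) of the CPM of both particles in WT VEH, 45.9% ± 0.504 (n = 3) in WT JZL184, 46.1% ± 0.927 (n = 3) in CD VEH and 42.7% ± 0.434 (n = 3) in CD JZL184. The regulatory particle genes summed to group means of 1219 to 1271 CPM, and the core genes to 946 to 1074.

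**Figure D1:**
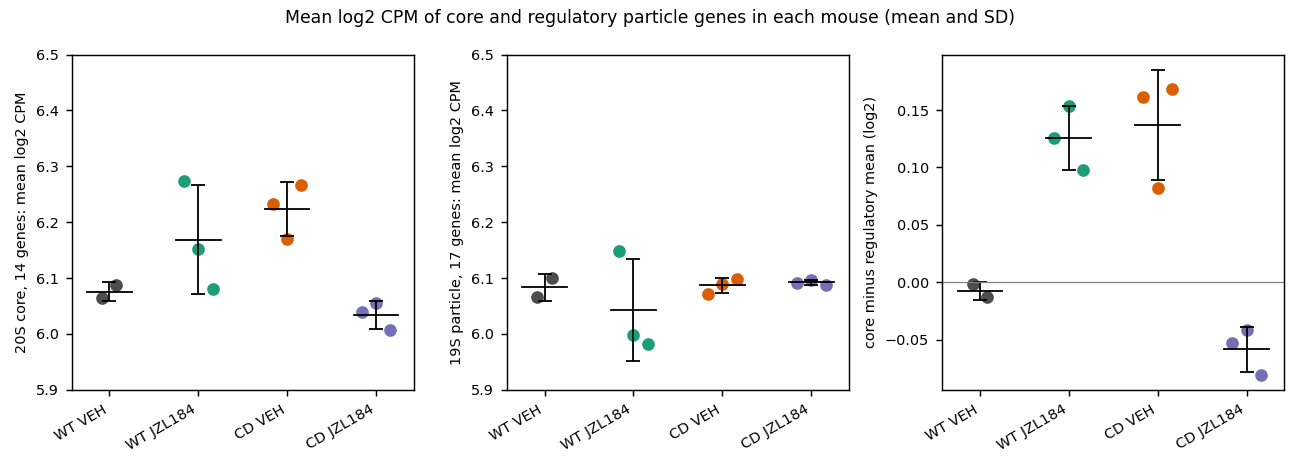
Mean log2 CPM of the 14 core genes (left), of the 17 regulatory particle genes (middle) and their difference in log2 units (right) for each mouse, with 1 point per mouse, the line at the group mean and the bar at the SD (n = 2 in WT VEH, 3 in the others). The difference is higher in all CD VEH and WT JZL184 mice than in all others. Values are not scaled to transcript length, so 0 is no reference level, and the left and middle axes start at 5.9.

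Gene length moved with this difference. Among all tested genes, the mean log2 CPM, centred over the mice, of genes with a longest coding transcript of 5000 bases or more minus that of genes of 1500 or less was 0.13 to 0.22 in WT VEH and 0.13 to 0.23 in CD JZL184, but -0.24 to -0.11 in CD VEH and -0.24 to -0.00047 in WT JZL184. The longest coding transcripts of core genes had a median of 1163 bases (766 to 2911) and those of regulatory genes of 1819 bases (1316 to 3112). The share of counts from 13 mitochondrial genes moved the same way, at 39.4 to 41.2% in WT VEH and 36.4 to 40.1% in CD JZL184 against 43.5 to 44.7% in CD VEH and 45.0 to 46.6% in WT JZL184. The part of length and of mitochondrial RNA in each result was measured only by fits with an offset for length, given beside the results, and by a fit without mitochondrial genes, in which the counts of called genes were 8, 16 and 5 in the 3 comparisons described next. No label gives a batch, so handling that WT VEH shared with CD JZL184, or CD VEH with WT JZL184, cannot be told apart from the groups.

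In CD VEH versus WT VEH hearts, which asks what the deletion changes, 5 of the 38 genes rose and 2 fell. The background was higher, with 15% of the 11319 tested genes rising and 15.4% falling (30.4% in all). Of the core genes, Psma3 and Psmb3 rose and 12 did not pass the test, with a median log2 fold-change of 0.14 against 0.0087 over all tested genes. All 14 core values were positive, as were 5786 of the 11319 tested genes and 1234 of the 1473 with a longest transcript of 1500 bases or less. In 12 of the 14 core genes every CD VEH mouse was above every WT VEH mouse, as it was for 32.5% of all tested genes. Tested genes with a longest transcript of 1500 bases or less had a median of 0.21, and 549 of 1473 rose. Of the regulatory genes, the ATPase gene Psmc3 and the ubiquitin receptor gene Psmd4 rose, Psmd1 fell and 14 did not pass the test, with a median of -0.0064. With an offset for the median coding length no core gene rose, and with an offset for the longest coding transcript the core median was -0.056. Leaving out WT VEH mouse C left 0 of the 7 calls, while 2 were counted without WT VEH mouse D, 3 without CD VEH mouse E, 4 without CD VEH mouse A and 12 without WT JZL184 mouse A.

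In CD JZL184 versus CD VEH hearts, which asks what the drug changes in the mutant, 4 of the 38 genes rose and 12 fell, against 16.8% of all tested genes rising and 17% falling (33.8% in all). Of the core genes Psma2, Psma3, Psma4, Psma5, Psma7, Psmb1, Psmb2, Psmb3 and Psmb4 fell, and Psma1, Psma6 and the peptidase genes Psmb5, Psmb6 and Psmb7 did not pass the test. The core median was -0.20, against -0.0024 over all tested genes and -0.21 over the 1473 genes with a longest transcript of 1500 bases or less, of which 674 fell. In 13 of the 14 core genes every CD JZL184 mouse was below every CD VEH mouse, as it was for 27.3% of all tested genes. Of the regulatory genes Psmd1, Psmd2 and Psmd11 rose, the ATPase gene Psmc6 fell and 13 did not pass the test, with a median of -0.019. With the offset for median length 3 core genes still fell (median -0.082), and with that for the longest transcript 2 fell and 1 rose (median 0.020). The 16 calls became 4 without CD VEH mouse A, 5 without CD JZL184 mouse A, 6 without CD VEH mouse E or CD JZL184 mouse E, and 9 without CD JZL184 mouse C.

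In WT JZL184 versus WT VEH hearts, which asks what the drug changes in the wild type, 3 of the 38 genes rose and 2 fell, against 15.4% of all tested genes rising and 14% falling (29.4% in all). Among core genes only Psmb3 passed the test, upward, and the core median was 0.081 against -0.0026 over all tested genes. Over tested genes with a longest transcript of 1500 bases or less the median was 0.16, and 409 of 1473 rose. Among regulatory genes Psmd4 rose and Psmd1 fell, with a median of -0.045. No proteasome gene passed in a fit of these 2 groups alone or without WT VEH mouse C or D, 3 passed without WT JZL184 mouse B, and 9 passed without WT JZL184 mouse A, which had the highest core mean of its group. With the longest transcript offset 7 genes passed, all downward, among them 1 core and 4 regulatory genes.

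Over the 38 genes, values of the groups did not overlap in 21 genes that were higher and 7 that were lower in CD VEH versus WT VEH (background 32.5% and 31.4%). In CD JZL184 versus CD VEH these were 6 and 24 genes (27.2% and 27.3%), in WT JZL184 versus WT VEH 8 and 8 (27.4% and 27.3%), and in CD JZL184 versus WT JZL184 8 and 11 (23.6% and 24.3%).

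These comparisons share mice with each other: the first and the third share the WT VEH mice, and the first and the second the CD VEH mice. The test of the difference itself, the drug effect in CD minus that in WT, called 19 of the 38 genes, 7 above 0 and 12 below, against 25.3% and 26.2% of all tested genes (51.5% in all). It called 8 of the 14 core genes, all below 0 (median -0.28), and 7 of the 17 regulatory genes, of which 5 were above 0 (median 0.029). Over the 1473 genes with a longest transcript of 1500 bases or less the median was -0.36, with 814 called below 0 and 43 above. With the longest transcript offset the core had 2 above and 2 below 0, and the regulatory particle 8 above and none below. In CD JZL184 versus WT JZL184 hearts, 7 genes were higher and 6 lower (background 18.2% and 20.1%), and the 6 lower ones were all core genes. Of the 1473 genes with a longest transcript of 1500 bases or less, 590 were lower there. The 19 calls became 12 without WT VEH mouse C, and the 13 calls of CD JZL184 versus WT JZL184 became 3 without CD JZL184 mouse E, 7 without CD JZL184 mouse A and 8 without WT JZL184 mouse B.

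In CD JZL184 versus WT VEH hearts none of the 38 genes passed the edgeR test, against 0.0442% of all tested genes rising and 0.141% falling (0.186% in all). None had an unadjusted p under 0.05 in that test, while of all 11319 tested genes 547 rose and 515 fell at that limit. DESeq2 also called none of the 38, and their largest difference was 0.12 on the log2 scale (Psmc3). This does not show that the groups were alike, since the 95% interval of Psme4, for example, ran from -0.36 to 0.12. Values did not overlap between these groups in 9 genes that were higher (background 17.7%) and 12 that were lower (18.9%).

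**Figure D2:**
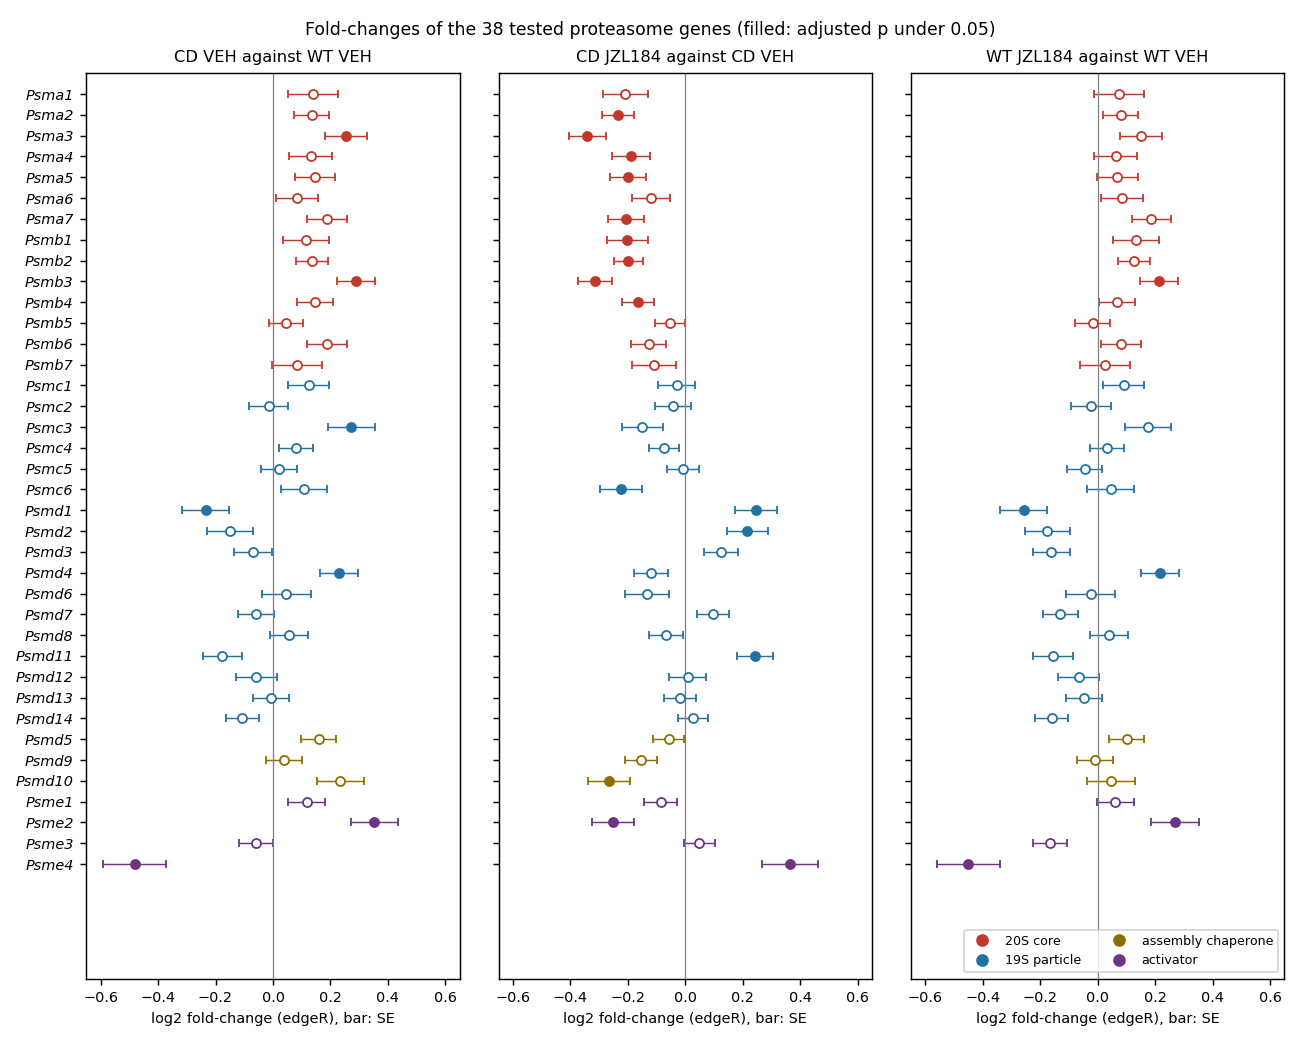
Log2 fold-change (points) and SE (bars) of the 38 tested proteasome genes in CD VEH versus WT VEH, CD JZL184 versus CD VEH and WT JZL184 versus WT VEH, from the edgeR fit. Filled points passed an adjusted p of 0.05, and core genes (red) lie right of 0 in the left panel, where all 14 are positive, and left of 0 in the middle panel, where all 14 are negative. Of all 11319 tested genes 5786 were positive in the first comparison and 5698 negative in the second. Of the 1473 with a longest transcript of 1500 bases or less these were 1234 and 1291.

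Among the core genes, Psmb3, a structural beta subunit, had 51.3 and 54.00 normalised CPM in WT VEH and 64.95, 59.96 and 58.3 in WT JZL184. It had 64.1, 61.6 and 67.4 in CD VEH and 51.6, 53.03 and 50.8 in CD JZL184. The CD VEH and WT JZL184 mice were all above the mice of both other groups. Psmb3 rose in CD VEH versus WT VEH (log2 fold-change 0.29 ± 0.066 (SE), adjusted p = 0.00953). It also rose in WT JZL184 versus WT VEH (log2 fold-change 0.21 ± 0.066 (SE), adjusted p = 0.0316) and fell in CD JZL184 versus CD VEH (log2 fold-change -0.31 ± 0.059 (SE), adjusted p = 0.0038). It has the shortest longest transcript of the core (766 bases), and with the offset for that length its value was 0.011 in CD VEH versus WT VEH and 0.00115 in CD JZL184 versus CD VEH. The rise in CD VEH had an adjusted p of 0.0952 without WT VEH mouse C, and that in WT JZL184 of 0.203 without WT VEH mouse C and 0.0872 without WT VEH mouse D.

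Psma3, an alpha ring subunit, had 65.7 and 66.2 normalised CPM in WT VEH and 79.4, 72.7 and 67.4 in WT JZL184. It had 79.9, 75.03 and 80.9 in CD VEH and 64.5, 60.95 and 60.8 in CD JZL184. All CD VEH mice were above all mice of WT VEH and CD JZL184, and WT JZL184 lay between with overlap of CD VEH. Psma3 rose in CD VEH versus WT VEH (log2 fold-change 0.25 ± 0.073 (SE), adjusted p = 0.0242) and fell in CD JZL184 versus CD VEH (log2 fold-change -0.34 ± 0.065 (SE), adjusted p = 0.00404). It did not pass in WT JZL184 versus WT VEH (log2 fold-change 0.15 ± 0.073 (SE), adjusted p = 0.139). The fall under JZL184 in CD passed at an adjusted p under 0.05 in each of 21 alternative fits (10 with another test, scaling, filter, offset or set of mice and 11 without 1 mouse), with a log2 fold-change of -0.31 with the longest transcript offset (longest transcript 2846 bases). The fall of Psma2, another alpha subunit (log2 fold-change -0.23 ± 0.054 (SE), adjusted p = 0.00836), also passed in each of them, and both are below the limit of 0.5 on the absolute log2 fold-change that was tried as another threshold. The rise in CD VEH was lost in 6 of the 21 alternatives, with adjusted p of up to 0.179 over the alternatives, the call being lost without CD VEH mouse A, CD VEH mouse E, WT VEH mouse C and WT VEH mouse D.

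None of the peptidase subunit genes passed the test in these 3 comparisons. Psmb5, which carries the chymotrypsin-like site and is the target of bortezomib, had 59.8 and 61.4 normalised CPM in WT VEH and 62.8, 59.7 and 57.1 in WT JZL184. It had 60.4, 63.1 and 64.1 in CD VEH and 59.5, 61.3 and 60.2 in CD JZL184. All 11 mice lay within 57.1 to 64.1 normalised CPM, and the groups overlapped. For Psmb5 the deletion gave a log2 fold-change of 0.046 (95% interval -0.083 to 0.18, adjusted p = 0.572) between the vehicle groups. JZL184 gave -0.053 (95% interval -0.17 to 0.063, adjusted p = 0.459) in CD and -0.018 (95% interval -0.15 to 0.11, adjusted p = 0.838) in WT mice. Under the longest transcript offset the same values were -0.20, 0.22 and -0.24, and all 3 passed the test. Psmb6, the caspase-like subunit, had 76.4 and 76.3 normalised CPM in WT VEH and 87.5, 78.8 and 76.4 in WT JZL184. It had 91.1, 84.2 and 85.7 in CD VEH and 79.03, 82.1 and 77.7 in CD JZL184. Its values did not pass in any of these comparisons, with 0.19 (95% interval 0.036 to 0.34, adjusted p = 0.0594) between the vehicle groups. Its sign turned under the longest transcript offset (-0.084, 0.18 and -0.15 in the same order of comparisons as for Psmb5). Psmb7, the trypsin-like subunit, had 115 and 118 normalised CPM in WT VEH and 135, 112 and 109 in WT JZL184. It had 119.9, 123 and 128 in CD VEH and 116, 117 and 111 in CD JZL184. Between the vehicle groups its log2 fold-change was 0.083 (95% interval -0.11 to 0.27, adjusted p = 0.481), and JZL184 gave -0.11 (95% interval -0.28 to 0.06, adjusted p = 0.29) in CD mice. These 2 signs also turned under that offset (-0.12 and 0.11).

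**Figure D3:**
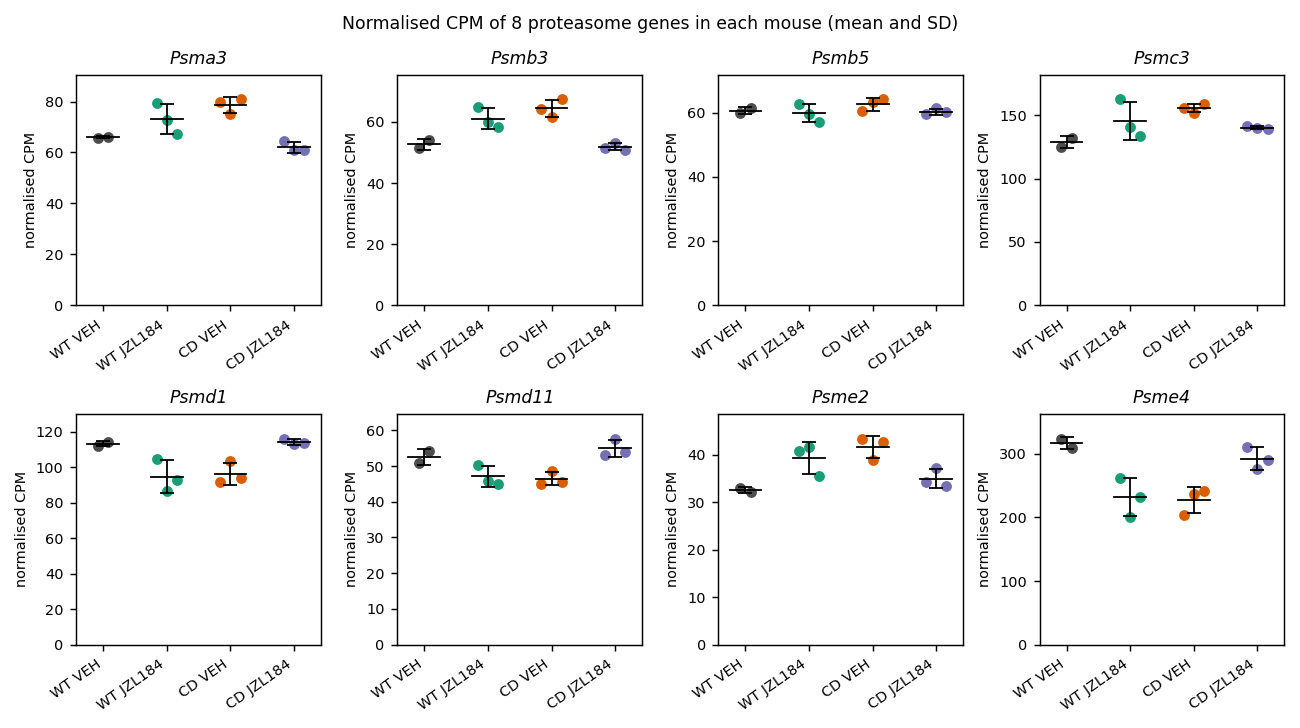
Normalised CPM of Psma3, Psmb3, Psmb5, Psmc3, Psmd1, Psmd11, Psme2 and Psme4 in each of the 11 mice, with 1 point per mouse, the line at the group mean and the bar at the SD, on axes that start at 0. Psma3, Psmb3 and Psme2 have their highest group mean in CD VEH, Psmd1, Psmd11 and Psme4 are higher in all WT VEH and CD JZL184 mice than in all CD VEH mice, and Psmb5 lies within 57.1 to 64.1 in all mice.

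In the regulatory particle the genes did not move together. Psmc3, an ATPase of the base ring, had 125 and 132 normalised CPM in WT VEH and 162, 140.3 and 133 in WT JZL184. It had 156, 152 and 158 in CD VEH and 141, 139.6 and 139 in CD JZL184. All CD VEH mice were above both WT VEH mice, and Psmc3 rose there (log2 fold-change 0.27 ± 0.08 (SE), adjusted p = 0.0258). Its values in CD JZL184 versus CD VEH (log2 fold-change -0.15 ± 0.071 (SE), adjusted p = 0.122) and in WT JZL184 versus WT VEH (log2 fold-change 0.18 ± 0.08 (SE), adjusted p = 0.115) did not pass. The rise was lost in 7 of the 21 alternatives, with adjusted p of 0.0676 without CD VEH mouse A, 0.0744 without CD VEH mouse E, 0.174 without WT VEH mouse C and 0.0819 without WT VEH mouse D. Psmd4, a ubiquitin receptor, had 53.6 and 56.8 normalised CPM in WT VEH and 69.1, 63.3 and 60.2 in WT JZL184. It had 63.2, 65.7 and 65.1 in CD VEH and 59.7, 59.2 and 59.6 in CD JZL184. The WT VEH mice were below all other mice, and Psmd4 rose in CD VEH (log2 fold-change 0.23 ± 0.066 (SE), adjusted p = 0.0238) and in WT JZL184 (log2 fold-change 0.22 ± 0.066 (SE), adjusted p = 0.0291) against WT VEH. The rise in CD VEH had an adjusted p of up to 0.278 over the alternatives, the call being lost without CD VEH mouse E, WT VEH mouse C and WT VEH mouse D, the rise in WT JZL184 one of 0.2 without WT VEH mouse C and 0.0778 without WT VEH mouse D, and both were lost with each length offset.

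Psmd1 and Psmd2, the large scaffold subunits of the base, and Psmd11, a lid subunit, went the other way. Psmd1 had 112 and 114 normalised CPM in WT VEH and 105, 86.6 and 92.9 in WT JZL184. It had 91.6, 103 and 93.8 in CD VEH and 116, 113 and 114 in CD JZL184. All WT VEH and CD JZL184 mice were above all mice of the other groups. Relative to WT VEH, Psmd1 fell in CD VEH (log2 fold-change -0.23 ± 0.081 (SE), adjusted p = 0.047) and in WT JZL184 (log2 fold-change -0.26 ± 0.081 (SE), adjusted p = 0.034). It rose in CD JZL184 versus CD VEH (log2 fold-change 0.25 ± 0.073 (SE), adjusted p = 0.0233). The fall in CD VEH was close to the limit and was lost in 14 of the 21 alternatives, among them the omission of each mouse of CD JZL184, of CD VEH mice A and E, of WT JZL184 mouse D and of each WT VEH mouse (adjusted p up to 0.184). The fall in WT JZL184 had an adjusted p of 0.0512 without CD JZL184 mouse E, 0.0904 without WT JZL184 mouse B, 0.0753 without WT JZL184 mouse D, 0.132 without WT VEH mouse C and 0.151 without WT VEH mouse D. The rise under JZL184 in CD kept its call with both length offsets but had an adjusted p of 0.0694 without CD JZL184 mouse A, 0.0634 without CD JZL184 mouse E, 0.0856 without CD VEH mouse A and 0.076 without CD VEH mouse E.

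Psmd2 had 164 and 167 normalised CPM in WT VEH and 162, 138 and 139 in WT JZL184. It had 143, 158 and 145 in CD VEH and 173, 171 and 175 in CD JZL184. The CD JZL184 mice were above all others, and Psmd2 rose in CD JZL184 versus CD VEH (log2 fold-change 0.22 ± 0.071 (SE), adjusted p = 0.035), with adjusted p of up to 0.112 over the alternatives, the call being lost without CD JZL184 mouse A, CD JZL184 mouse C, CD JZL184 mouse E, CD VEH mouse A, CD VEH mouse E, WT VEH mouse C and WT VEH mouse D. In CD VEH (log2 fold-change -0.15 ± 0.079 (SE), adjusted p = 0.163) and WT JZL184 (log2 fold-change -0.17 ± 0.079 (SE), adjusted p = 0.112) against WT VEH it did not pass. Psmd11 had 50.8 and 54.1 normalised CPM in WT VEH and 50.4, 45.9 and 45.1 in WT JZL184. It had 45.1, 48.6 and 45.7 in CD VEH and 53.2, 57.7 and 53.98 in CD JZL184. It rose in CD JZL184 versus CD VEH (log2 fold-change 0.24 ± 0.062 (SE), adjusted p = 0.0131), a call that was lost without CD JZL184 mouse C (adjusted p = 0.0502), and did not pass in CD VEH versus WT VEH (log2 fold-change -0.18 ± 0.069 (SE), adjusted p = 0.0729). The other 12 regulatory genes had log2 fold-changes of -0.11 to 0.12 in CD VEH versus WT VEH and of -0.22 to 0.12 in CD JZL184 versus CD VEH.

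Of the chaperones, Psmd10 (gankyrin) had 6.84 and 6.74 normalised CPM in WT VEH and 7.38, 7.12 and 6.55 in WT JZL184. It had 8.07, 7.56 and 8.33 in CD VEH and 6.35, 6.78 and 6.80 in CD JZL184. It fell in CD JZL184 versus CD VEH (log2 fold-change -0.27 ± 0.073 (SE), adjusted p = 0.0176), with adjusted p of 0.0654 without CD JZL184 mouse A, 0.0612 without CD VEH mouse A and 0.076 without CD VEH mouse E, and the call was also lost with both length offsets. In CD VEH versus WT VEH it did not pass (log2 fold-change 0.23 ± 0.083 (SE), adjusted p = 0.0508). Psmd5 and Psmd9 passed in none of the 3 comparisons, with values of -0.15 to 0.16.

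Among the activators, Psme4 changed most of all 38 genes in the 3 comparisons without a length offset. Psme4, which encodes the large PA200 cap, had 324 and 310.1 normalised CPM in WT VEH and 262, 201 and 233 in WT JZL184. It had 204, 237 and 241 in CD VEH and 311, 276 and 290.5 in CD JZL184. All WT VEH mice and all CD JZL184 mice were above all mice of the other groups. Relative to WT VEH, Psme4 fell in CD VEH (log2 fold-change -0.48 ± 0.11 (SE), adjusted p = 0.00935) and in WT JZL184 (log2 fold-change -0.45 ± 0.11 (SE), adjusted p = 0.0121). Psme4 rose in CD JZL184 versus CD VEH (log2 fold-change 0.36 ± 0.099 (SE), adjusted p = 0.0165). Its longest coding transcript is 6491 bases, the longest of the members, and with the offset for that length the 3 values were -0.35, -0.37 and 0.24, of which the last no longer passed (adjusted p = 0.0843). The fall in CD VEH had an adjusted p of 0.0787 without WT VEH mouse C, the fall in WT JZL184 of 0.0931 without WT VEH mouse C and 0.0567 without WT VEH mouse D, and the rise of 0.0626 without CD JZL184 mouse A and 0.0675 without CD VEH mouse A. Tested genes of 5000 bases or more had medians of -0.16, -0.14 and 0.15 in the same comparisons.

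The PA28 genes differed from each other. Psme2 had 33.1 and 32.2 normalised CPM in WT VEH and 40.8, 41.8 and 35.6 in WT JZL184. It had 43.5, 38.97 and 42.7 in CD VEH and 34.2, 37.3 and 33.4 in CD JZL184. Both WT VEH mice were below all mice of CD VEH and WT JZL184, and Psme2 rose in CD VEH (log2 fold-change 0.35 ± 0.083 (SE), adjusted p = 0.0104) and in WT JZL184 (log2 fold-change 0.27 ± 0.082 (SE), adjusted p = 0.0302). It fell in CD JZL184 versus CD VEH (log2 fold-change -0.25 ± 0.073 (SE), adjusted p = 0.0214). The adjusted p was 0.0687 without WT VEH mouse C and 0.0746 without WT VEH mouse D for the rise in CD VEH, 0.0797 without WT JZL184 mouse B, 0.121 without WT VEH mouse C and 0.152 without WT VEH mouse D for that in WT JZL184 and 0.0693 without CD JZL184 mouse A, 0.0868 without CD JZL184 mouse E, 0.085 without CD VEH mouse A and 0.0773 without CD VEH mouse E for the fall, and all 3 calls were lost with the longest transcript offset. Psme2b is a copy of Psme2 whose transcript is 99.4% identical to it over 794 of its 837 bases, so reads may be split between them and the values of both are uncertain. Psme1, the partner of Psme2, had 62.8 and 64.4 normalised CPM in WT VEH and 70.8, 62.8 and 65.6 in WT JZL184. It had 72.3, 67.5 and 67.3 in CD VEH and 64.9, 65.8 and 64.5 in CD JZL184. Its log2 fold-change between the vehicle groups was 0.12 (95% interval -0.023 to 0.26, adjusted p = 0.18), and it turned to -0.094 with the longest transcript offset. Psme3, the subunit of the nuclear PA28 ring, had 42.2 and 42.7 normalised CPM in WT VEH and 38.01, 39.1 and 36.5 in WT JZL184. It had 41.8, 41.9 and 38.7 in CD VEH and 41.98, 42.9 and 41.8 in CD JZL184. It did not pass in CD VEH (log2 fold-change -0.058 ± 0.059 (SE), adjusted p = 0.466) or in WT JZL184 (log2 fold-change -0.17 ± 0.059 (SE), adjusted p = 0.053) against WT VEH.

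**Figure D4:**
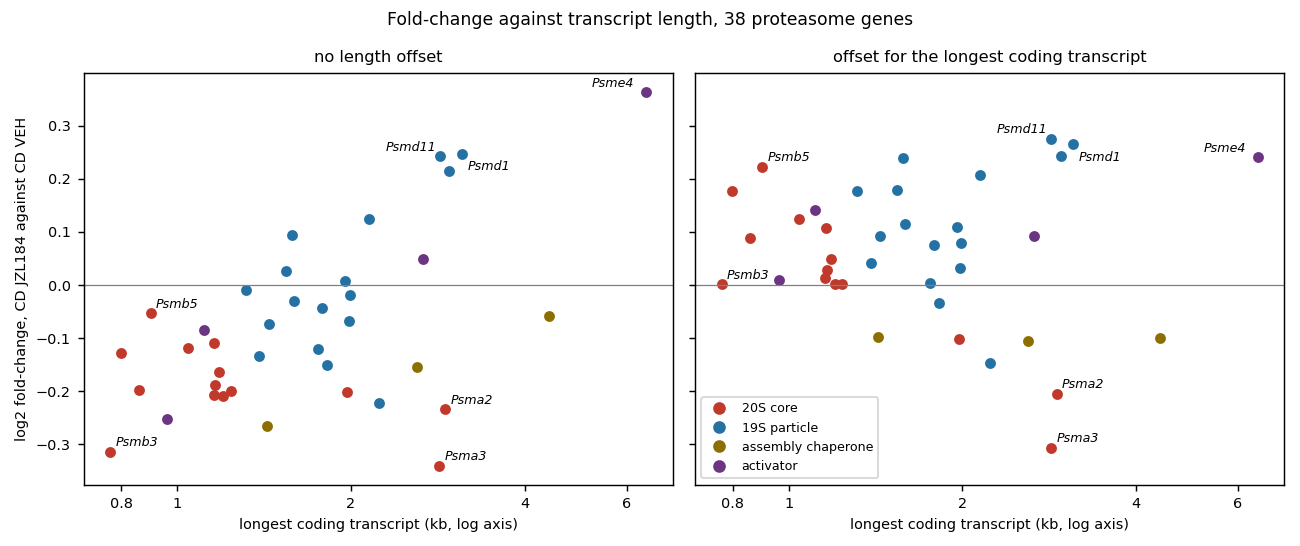
Log2 fold-change in CD JZL184 versus CD VEH of the 38 tested genes against the length of the longest coding transcript (kb, log axis), without (left) and with (right) an offset for that length in the edgeR fit, 1 point per gene, coloured by particle. Without the offset Psme4 is highest and all 14 core genes lie below 0, as did 5698 of all 11319 tested genes and 1291 of the 1473 of 1500 bases or less. With the offset Psma2 and Psma3 are lowest and Psmb3 lies at 0.0011.

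Across the 38 genes, Spearman's rho between length of the longest transcript and log2 fold-change was -0.47 in CD VEH versus WT VEH, 0.42 in CD JZL184 versus CD VEH and -0.45 in WT JZL184 versus WT VEH, a description over genes that share the same libraries. Within the 14 core genes it was -0.059, -0.42 and -0.11, and within the 17 regulatory genes -0.44, 0.41 and -0.38. The sign in the core under JZL184 in CD was opposite to that over the 38 genes.

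Cell type markers moved between the groups too. The 4 endothelial markers summed to 459 to 465 normalised CPM in WT VEH, 697 to 719 in WT JZL184, 580.4 to 636 in CD VEH and 454 to 532 in CD JZL184. The 4 macrophage markers summed to 178 to 189, 238 to 407, 229 to 302 and 157 to 182, and the 4 fibroblast markers to 525 to 547, 669.9 to 822, 624 to 697 and 492 to 543, in the same order. Dcn alone had 353 to 638 of the fibroblast sum, and Col1a1 and Col1a2 passed the test in none of the 3 comparisons. The 3 smooth muscle markers summed to 77.8 to 88.9, 119 to 157, 89.7 to 99.3 and 57.2 to 72.7, and Tagln and Myh11 passed in all 3 comparisons while Acta2 passed in none. In these 4 sets every CD VEH and WT JZL184 mouse, the mice with the high core share, was above every other mouse. The cardiomyocyte sum was 32020 to 32498, 23242 to 31708, 28060 to 30449 and 30829 to 32755, and its 6 markers did not move together. Under JZL184 in CD mice Myh6, Actn2 and Ryr2 rose (log2 fold-changes 0.45, 0.42 and 0.63) and Myl2 fell (-0.35), while Tnnt2 and Tnni3 did not pass. The 4 atrial markers summed to 50.5 to 221 CPM, of which Nppa alone had 49.2 to 220. Myl4 reached at most 1.69 CPM in any mouse, Myl7 0.521 and Sln 0.188. The part of cell makeup in the proteasome values was not tested.

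Other genes of the ubiquitin-proteasome system were taken from a list of 33, of which 32 were found and tested. None passed in CD JZL184 versus WT VEH (background 0.186%). In CD VEH versus WT VEH 6 rose and 9 fell (background 15% and 15.4%). In CD JZL184 versus CD VEH 11 rose and 9 fell (16.8% and 17%), and in WT JZL184 versus WT VEH 5 rose and 11 fell (15.4% and 14%). Without the 3 immunoproteasome genes 3 rose and 9 fell, 11 rose and 6 fell, and 2 rose and 11 fell of 29. Leaving out 1 mouse gave 2 to 18, 7 to 23 and 1 to 19 calls of the 32 genes in these 3 comparisons. Counts fell to 2 and 3 in CD VEH versus WT VEH without WT VEH mouse C or D (5 without CD VEH mouse A or E). They were 7 to 13 in CD JZL184 versus CD VEH without any of CD VEH mice A and E and CD JZL184 mice A, C and E, and 2, 1 and 9 in WT JZL184 versus WT VEH without WT VEH mouse C, WT VEH mouse D or WT JZL184 mouse B. Length offsets gave 7 to 8 in the first comparison and 12 to 13 in the second.

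The list holds 2 subunits of the 19S particle that the symbols leave out, Sem1 and Adrm1, and both are named here after their values were seen. Sem1, a lid subunit, had 61.3 and 55.98 normalised CPM in WT VEH and 74.9, 64.1 and 63.6 in WT JZL184. It had 77.9, 64.6 and 72.6 in CD VEH and 55.4, 54.1 and 53.5 in CD JZL184. All its CD VEH mice were above all WT VEH and CD JZL184 mice (background 32.5% and 27.3%). Sem1 rose in CD VEH (log2 fold-change 0.29 ± 0.092 (SE), adjusted p = 0.0343), a call lost with both length offsets and without CD VEH mouse A or E or either WT VEH mouse (adjusted p up to 0.324). It fell under JZL184 in CD mice (log2 fold-change -0.40 ± 0.082 (SE), adjusted p = 0.0051), which was lost with the longest transcript offset (adjusted p = 0.0549). Adrm1, a ubiquitin receptor of the base, had 35.3 to 42.3 normalised CPM over the 11 mice and log2 fold-changes of 0.012, 0.043 and -0.025 in the 3 comparisons, none of which passed.

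Of this list, Fbxo32, the muscle ubiquitin ligase atrogin-1, had the largest log2 fold-change in both comparisons with CD VEH, with 157 and 177 normalised CPM in WT VEH and 107, 90.3 and 117 in WT JZL184. It had 94.4, 122 and 88.3 in CD VEH and 163, 156 and 165 in CD JZL184. All WT VEH and CD JZL184 mice were above all others. Relative to WT VEH, Fbxo32 fell in CD VEH (log2 fold-change -0.71 ± 0.13 (SE), adjusted p = 0.00466) and in WT JZL184 (log2 fold-change -0.67 ± 0.13 (SE), adjusted p = 0.00573). Fbxo32 rose in CD JZL184 versus CD VEH (log2 fold-change 0.67 ± 0.12 (SE), adjusted p = 0.00334). With the longest transcript offset the values were -0.58, -0.58 and 0.53, all called, and of these only the fall in WT JZL184 was lost on leaving out a mouse (adjusted p = 0.0547 without WT VEH mouse D).

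Ddi2, Nfe2l1, Ecpas and Ubqln2 rose under JZL184 in CD mice, and Ddi2 and Ecpas fell in CD VEH and in WT JZL184 relative to WT VEH. Ddi2, the protease that processes Nfe2l1, had 47.3 and 43.7 normalised CPM in WT VEH and 37.7, 39.2 and 39.1 in WT JZL184. It had 33.3, 36.9 and 35.6 in CD VEH and 45.2, 40.2 and 42.3 in CD JZL184. It fell in CD VEH (log2 fold-change -0.37 ± 0.07 (SE), adjusted p = 0.00484) and rose in CD JZL184 versus CD VEH (log2 fold-change 0.27 ± 0.063 (SE), adjusted p = 0.00845), and both calls were lost with the longest transcript offset and the first without WT VEH mouse C (adjusted p up to 0.101 and 0.351). Its fall in WT JZL184 (log2 fold-change -0.24 ± 0.07 (SE), adjusted p = 0.0265) was lost with both length offsets, with upper quartile scaling, in the compared groups alone and without either WT VEH mouse (adjusted p up to 0.404). Nfe2l1 had 361 and 378 normalised CPM in WT VEH and 326, 324 and 329 in WT JZL184. It had 329.9, 364 and 317 in CD VEH and 387, 415 and 402 in CD JZL184. It rose in CD JZL184 versus CD VEH (log2 fold-change 0.25 ± 0.067 (SE), adjusted p = 0.0153), a call lost without CD VEH mouse A or E or CD JZL184 mouse C or E (adjusted p up to 0.0653), and did not pass in CD VEH versus WT VEH (log2 fold-change -0.13 ± 0.075 (SE), adjusted p = 0.186). Ecpas, a scaffold that binds the 26S proteasome, had 165 and 156 normalised CPM in WT VEH and 144, 109.5 and 123 in WT JZL184. It had 119, 132 and 125 in CD VEH and 164, 148 and 160.5 in CD JZL184. It rose in CD JZL184 versus CD VEH (log2 fold-change 0.33 ± 0.09 (SE), adjusted p = 0.0172), a call lost with the longest transcript offset and without CD VEH mouse A or E or CD JZL184 mouse A or E (adjusted p up to 0.119). Ecpas fell in CD VEH (log2 fold-change -0.36 ± 0.1 (SE), adjusted p = 0.0214) and in WT JZL184 (log2 fold-change -0.36 ± 0.1 (SE), adjusted p = 0.0218). Both falls were lost with the longest transcript offset and without either WT VEH mouse, the first also without CD VEH mouse A or E, and the second without WT JZL184 mouse B or D and in the compared groups alone (adjusted p up to 0.14 and 0.14). The shuttle factor gene Ubqln2 had 14.7 and 14.6 normalised CPM in WT VEH and 11.9, 13.00 and 12.3 in WT JZL184. It had 12.5, 14.3 and 11.8 in CD VEH and 14.9, 17.6 and 15.4 in CD JZL184. Its value rose in the same comparison (log2 fold-change 0.31 ± 0.083 (SE), adjusted p = 0.0153), a call lost without CD VEH mouse A or E or CD JZL184 mouse C (adjusted p up to 0.0625).

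Rps27a, which encodes ubiquitin fused to a ribosomal protein, had 137 and 129 normalised CPM in WT VEH and 169.5, 205 and 172 in WT JZL184. It had 207, 160.4 and 189 in CD VEH and 129, 126 and 123 in CD JZL184. It rose in CD VEH versus WT VEH (log2 fold-change 0.48 ± 0.11 (SE), adjusted p = 0.00942), a call lost with the longest transcript offset and without either WT VEH mouse (adjusted p up to 0.0916), and fell in CD JZL184 versus CD VEH (log2 fold-change -0.56 ± 0.096 (SE), adjusted p = 0.00287). It also rose in WT JZL184 (log2 fold-change 0.45 ± 0.11 (SE), adjusted p = 0.0116), a call lost under the same conditions as that in CD VEH (adjusted p up to 0.0883). Its ubiquitin part is near-identical in other genes, so the split of reads among them is uncertain.

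The immunoproteasome subunits, which replace the peptidase subunits of the core in immune cells and after interferon and were left out of the 40 genes, moved in the same 3 comparisons. Psmb8 had 7.89 and 8.11 normalised CPM in WT VEH and 10.2, 17.2 and 13.5 in WT JZL184. It had 13.1, 11.7 and 14.4 in CD VEH and 6.83, 10.2 and 9.10 in CD JZL184. Psmb9 had 4.84 and 4.64 normalised CPM in WT VEH and 6.40, 9.85 and 7.59 in WT JZL184. It had 7.82, 6.80 and 6.92 in CD VEH and 4.16, 5.62 and 5.70 in CD JZL184. Psmb10 had 24.8 and 25.6 normalised CPM in WT VEH and 31.8, 33.4 and 32.6 in WT JZL184. It had 33.2, 32.7 and 32.7 in CD VEH and 26.7, 29.6 and 27.5 in CD JZL184. In CD VEH versus WT VEH they rose by log2 fold-changes of 0.70, 0.60 and 0.38 (adjusted p = 0.0233, 0.0264 and 0.00306). In WT JZL184 versus WT VEH they rose by 0.76, 0.74 and 0.37 (adjusted p = 0.017, 0.0115 and 0.00289), and without WT VEH mouse C or D the calls of Psmb8 and Psmb9 were lost (adjusted p up to 0.109 and 0.0786). Under JZL184 in CD mice they changed by -0.58, -0.48 and -0.24 (adjusted p = 0.0261, 0.034 and 0.00798). The rises of Psmb8 and Psmb9 in CD VEH were lost without WT VEH mouse C or D or CD VEH mouse A or E (adjusted p up to 0.129 and 0.133), and that of Psmb9 also with both length offsets. Their falls were lost with both length offsets and without CD VEH mouse A or E or CD JZL184 mouse A or E (adjusted p up to 0.0971 and 0.134), and the fall of Psmb10 with both length offsets (adjusted p up to 0.481). The macrophage and endothelial sums given above were high in the same groups, and their part in these values was not tested.

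**Figure D5:**
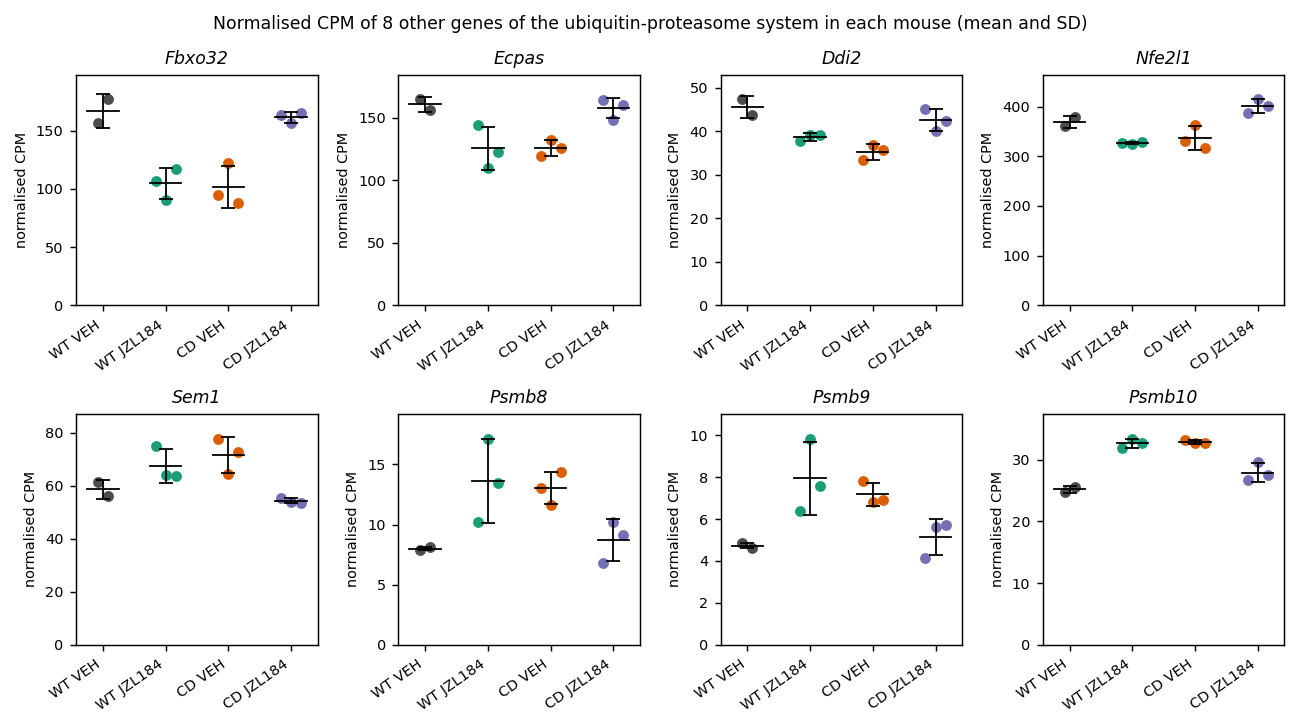
Normalised CPM of Fbxo32, Ecpas, Ddi2, Nfe2l1, Sem1, Psmb8, Psmb9 and Psmb10 in each of the 11 mice, with 1 point per mouse, the line at the group mean and the bar at the SD, on axes that start at 0. Fbxo32, Ecpas and Ddi2 are higher in all WT VEH and CD JZL184 mice than in all CD VEH mice, and Psmb8, Psmb9 and Psmb10 have the opposite order between those groups.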

How the data were processed

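RNA was isolated from the hearts of 11 mice, and the authors quantified transcripts with Salmon 0.7.2 against Ensembl release 85 (GRCm38, mm10 per the labels) and summed them per gene with tximport. The authors deposited these estimated counts per gene, not normalised, which were rounded here to whole numbers. No column lacked a group (0 of 11). Library preparation is given only as standard Illumina, and strandedness is not given in the sources used here.

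Of 22608 genes, 22238 matched GENCODE M21 by identifier without version. The 11319 genes whose average log2 CPM reached 1 were tested with edgeR 4.0.16 in R 4.3.3, by the quasi-likelihood F-test on 4 groups in 1 fit, with TMM factors and Benjamini-Hochberg adjustment over all tested genes, and called at an adjusted p under 0.05. Normalised CPM are counts scaled to the TMM library size. DESeq2 1.42.0, other scalings and filters, length and GC offsets (loess, span 0.5, 99.3% of tested genes with a length), single groups and the omission of each mouse were alternatives, and the offset for the longest transcript was added after the data were seen, because the median coding length understates genes such as Psme4. Psm pseudogenes and other copies may share reads with the members.

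Members, roles and lists were chosen with earlier results of these data known. Values in every mouse are given for Psmb5, Psmb6, Psmb7, Psme1 to Psme4 and the 3 highest and 3 lowest members by log2 fold-change in the 3 comparisons with vehicle. From the other ubiquitin-proteasome genes they are given for up to 3 called genes with the highest and 3 with the lowest log2 fold-change in both comparisons with CD VEH, with Nfe2l1, Psmb8, Psmb9 and Psmb10, and 1 gene that this rule names is not reported here. Replicate libraries differed by far more than sampling noise. Figures were drawn with matplotlib 3.10.9 in Python 3.11.15.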

Additional observations from a re-analysis of the deposited data

Results flagged for a closer look

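The JZL184 effect in CD minus that in WT, tested as a term of the edgeR model, passed for 19 proteasome genes, and these are given as differences of log2 fold-changes. It was below 0 for the core genes Psma2 (-0.31), Psma3 (-0.49), Psma5 (-0.27), Psma7 (-0.39), Psmb1 (-0.34), Psmb2 (-0.32), Psmb3 (-0.53) and Psmb4 (-0.23). It was also below 0 for the regulatory genes Psmc3 (-0.33) and Psmd4 (-0.34), the chaperone gene Psmd10 (-0.31) and the activator gene Psme2 (-0.52). It was above 0 for the regulatory genes Psmd1 (0.50), Psmd2 (0.39), Psmd3 (0.29), Psmd7 (0.23) and Psmd11 (0.40) and for the activator genes Psme3 (0.21) and Psme4 (0.81). Adjusted p ran from 0.000676 (Psmb3) to 0.0391 (Psme3).

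Of the other ubiquitin-proteasome genes named, the same term was above 0 for Fbxo32 (1.34), Ecpas (0.68), Ubqln2 (0.56), Ddi2 (0.51) and Nfe2l1 (0.43), and below 0 for Psmb8 (-1.34), Psmb9 (-1.22), Psmb10 (-0.61) and Rps27a (-1.01). Each passed the test, as 51.5% of all tested genes did. With the longest transcript offset Psma5, Psma7, Psmb1, Psmb2, Psmb3, Psmb4, Psmc3, Psmd4, Psmd10, Psme2 and Ddi2 no longer passed, and the values of Psma5, Psma7, Psmb2, Psmb3 and Psmb4 were then above 0.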

How the results depend on the processing

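No paired analysis was possible because the columns of the table carry letters and no replicate number of the labels. The proteasome changes were small and rest on groups of 2 or 3 mice, so that counts of calls moved with single mice. No replicate block was fitted.

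Called proteasome genes in CD VEH versus WT VEH (7) were 13 with upper quartile scaling, 2 at an adjusted p under 0.01, 0 at a limit of 0.5 on the absolute log2 fold-change and 0 to 12 when each mouse was left out. In CD JZL184 versus CD VEH (16) they were 10 without a filter, 9 with either length offset, 3 at the stricter p, 0 at the fold-change limit and 4 to 19 by mouse. In WT JZL184 versus WT VEH (5) they were 8 with DESeq2, 3 without a filter, 0 in the compared groups alone, 0 at the stricter p, 0 at the fold-change limit and 0 to 9 by mouse. In CD JZL184 versus WT JZL184 (13) they were 8 without a filter, 1 at the stricter p, 0 at the fold-change limit and 3 to 13 by mouse. In the difference of drug effects (19) they were 11 at the stricter p, 4 at the fold-change limit and 12 to 22 by mouse. In CD JZL184 versus WT VEH they were 0 under each alternative.

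The other ubiquitin-proteasome genes called were 8 and 7 with the length offsets (median and longest), 4 at the stricter p, 3 at the fold-change limit and 2 to 18 by mouse in CD VEH versus WT VEH (15), then 12, 13, 7, 3 and 7 to 23 in CD JZL184 versus CD VEH (20), and 6 in the compared groups alone, 2 at the stricter p, 3 at the fold-change limit and 1 to 19 by mouse in WT JZL184 versus WT VEH (16). Of all tested genes the main fit called 30.4%, 33.8% and 29.4% in these comparisons.

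The core median minus the regulatory median kept its sign under each alternative. With the longest transcript offset it was 0.081 in CD VEH versus WT VEH (0.14 without), -0.090 in CD JZL184 versus CD VEH (-0.18), 0.059 in WT JZL184 versus WT VEH (0.13), -0.060 in CD JZL184 versus WT JZL184 (-0.15) and -0.097 in the difference of drug effects (-0.30). With the median length offset it was -0.13, -0.10 and -0.23 in the comparisons under JZL184 in CD, between treated groups and of drug effects. By mouse it ran over 0.12 to 0.16, -0.19 to -0.16, 0.12 to 0.14, -0.17 to -0.14 and -0.32 to -0.27.

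Signs turned, mostly in genes that did not pass, with the median length offset for Psmb5 (-0.077 in CD VEH versus WT VEH and 0.085 in CD JZL184 versus CD VEH), Psmb6 (0.0068 in CD JZL184 versus CD VEH and -0.028 in WT JZL184 versus WT VEH), Psmb7 (-0.015 in CD VEH and -0.064 in WT JZL184 versus WT VEH) and Psme1 (-0.011, 0.060 and -0.056 in the 3 comparisons). With the longest transcript offset they turned for Psmb5 (-0.20 and 0.22), Psmb6 (-0.084, 0.18 and -0.15), Psmb7 (-0.12, 0.11 and -0.15) and Psme1 (-0.094, 0.14 and -0.12), and for the called Psmb3 (0.0011 in CD JZL184 versus CD VEH, -0.029 in WT JZL184 versus WT VEH) and Psme2 (0.0089 in CD JZL184 versus CD VEH). Psmb5 turned with the GC offset (-0.018 in CD VEH versus WT VEH), and in WT JZL184 versus WT VEH with upper quartile scaling (0.022), in the compared groups alone (0.00023) and without 1 mouse (-0.050 to 0.014 over the 11 omissions). Psmb7 turned in the last comparison without WT JZL184 mouse A (-0.077, up to 0.082 without other mice). The cause of these changes was not tested. CPM per kb in WT VEH were 67.4 for Psmb5 with the exon union or the longest transcript, and 40.8 for Psmb6 and 34.1 for Psmb7 with the exon union. TGAGNNNGC was in 35.1% of member windows. Of 338 values under an alternative, 265 stayed within a set limit. The limit was 1.5 times for counts, 1 SD for medians and levels per length, and the 95% binomial interval for the motif share. Among the 265 are the counts of CD JZL184 versus WT VEH, which were 0 throughout.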
